A study of Mus musculus with 14 samples.

Results

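The suprachiasmatic nucleus (SCN) of exercised Vipr2-/- mice was set against the SCN of wild-type mice that had no exercise schedule. The comparison used the 3 libraries labelled as knockout with scheduled voluntary exercise (SVE) and the 4 labelled as wild type without it (nSVE), 7 of the 14 libraries of the study. A gene was tested when its normalised count reached 10 in at least 3 of the 14 libraries, which held for 18175 of the 55401 genes listed. The study sequenced total RNA of SCN tissue cut by laser from brain sections. Vipr2-/- mice carried the knockout on a C57BL/6 background and descended from a donated breeding stock. Wild-type mice were C57BL/6 from a commercial supplier. Most animals were adult males over 8 weeks old, and all spent 14 days in a light-dark cycle before constant darkness. The exercised Vipr2-/- mice then free ran for 14 days and then had wheel exercise scheduled for 6 h of every 24 h, to which they entrained in 6 to 9 days. They were killed 2 h after the wheel became available, at schedule time 14, and mice that did not entrain had been left out. The wild-type nSVE mice free ran in darkness and were killed at circadian time 14. The 3 libraries of free-running Vipr2-/- mice without the schedule (Vipr2-/- nSVE, arrhythmic animals left out) give values set beside these. Genotype, exercise, the origin of the mice and the reference for time 14 (schedule or circadian) therefore differ together here. They cannot be told apart within these 7 libraries. Separate animals within a group are not stated in the labels, and each p-value therefore reflects only library-to-library spread, which may be technical.

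The SCN is the hypothalamic pacemaker of daily rhythms. Its neurons keep time through a loop in which CLOCK and BMAL1 drive the Per, Cry and Nr1d genes, whose products repress that drive. VIP, released by neurons of the ventral SCN, acts on VPAC2, the receptor encoded by Vipr2, and holds the cells in phase with each other through cAMP. Mice without VPAC2 have weak or disordered rhythms in darkness, and a daily schedule of wheel access can restore a rhythm of behaviour close to that of the schedule. The question put to these 7 libraries was which transcripts stood at the wild-type level in such behaviourally entrained knockouts and which stood apart.

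The promoters of 4 peptide genes are shown because Vip, Sst and Avp stood below wild type in the exercised knockout and Prok2, a secreted output signal, did not pass the test. CREB, the factor that cAMP signalling activates, binds the cAMP response element TGACGTCA or its shorter form TGACG, and CLOCK with BMAL1 binds the E-box CACGTG. Each line gives RefSeq sequence of build GRCm38.p6 from 250 bases before to 50 bases after the gene's start, read 5′ to 3′ on the gene's strand, with the match in capitals.
Vip, chr10:5638968-5639267, plus strand: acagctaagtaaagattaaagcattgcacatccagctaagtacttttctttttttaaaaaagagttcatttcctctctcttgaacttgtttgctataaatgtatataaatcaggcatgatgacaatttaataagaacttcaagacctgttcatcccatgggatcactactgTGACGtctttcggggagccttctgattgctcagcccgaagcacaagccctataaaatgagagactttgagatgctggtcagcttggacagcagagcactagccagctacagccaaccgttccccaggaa
Sst, chr16:23890795-23891094, minus strand: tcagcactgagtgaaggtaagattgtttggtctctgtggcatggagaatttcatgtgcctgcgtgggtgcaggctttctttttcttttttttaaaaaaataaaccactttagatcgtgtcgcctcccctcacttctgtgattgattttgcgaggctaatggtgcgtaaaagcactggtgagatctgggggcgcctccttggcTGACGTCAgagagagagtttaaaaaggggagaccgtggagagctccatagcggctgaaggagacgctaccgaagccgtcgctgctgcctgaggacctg
Avp, chr2:130582539-130582838, minus strand: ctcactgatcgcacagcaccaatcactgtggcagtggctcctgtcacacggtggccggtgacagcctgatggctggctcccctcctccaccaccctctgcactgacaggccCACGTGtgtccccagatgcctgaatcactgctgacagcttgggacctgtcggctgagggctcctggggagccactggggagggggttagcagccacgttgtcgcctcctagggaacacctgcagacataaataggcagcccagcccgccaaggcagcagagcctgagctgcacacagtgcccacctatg
Prok2, chr6:99726343-99726642, minus strand: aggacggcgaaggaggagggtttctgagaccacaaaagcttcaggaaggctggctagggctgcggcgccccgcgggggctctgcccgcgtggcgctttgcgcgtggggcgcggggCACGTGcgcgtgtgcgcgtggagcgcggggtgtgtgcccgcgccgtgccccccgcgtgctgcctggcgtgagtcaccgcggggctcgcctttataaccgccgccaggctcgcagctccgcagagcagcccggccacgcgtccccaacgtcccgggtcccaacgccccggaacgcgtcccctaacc

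The match begins 79 bases before the start in Vip, 48 in Sst, 139 in Avp and 135 in Prok2. Both strands were searched, and TGACG lies inside TGACGTCA. Of 32851 promoter windows of this length, 1.79% held TGACGTCA, 20.8% TGACG and 7.15% CACGTG, and of 12155 tested genes with a window the shares were 3.38%, 33.5% and 11.2%. Of 15 genes searched, 11 had a window, and 6 of the 11 held a motif, Per1 and Cry2 besides the 4 shown. Nr1d1, Rgs16, Prokr2, Dbp and Nms held none. A match describes these letters and says nothing of binding in these mice.

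Read depth over the 14 libraries ran from 17709080 to 48794679. Of the genes tested, 4.56% to 8.23% were at 0 in the wild-type nSVE libraries and 3.99% to 16.3% in the Vipr2-/- SVE libraries, the highest in library 3. The groups did not differ in that share beyond the spread (6.94% ± 1.66, SD, n = 4, against 10.3% ± 6.17, n = 3, exact permutation p = 0.457, two-sided). An rRNA-related gene, CT010467.1, took 15.03% ± 8.11 of wild-type nSVE reads and 3.22% ± 0.518 of Vipr2-/- SVE reads (exact permutation p = 0.0571, two-sided). The groups did not overlap in that share, and this p is the smallest that the test can give with 4 and 3 libraries. Wild-type nSVE library 2 stood apart in activity genes, being the highest of the 4 in 19 of 20 immediate-early genes. Marker genes of SCN neurons were abundant in both groups. Six3 averaged 10511 in wild type and 11292 in Vipr2-/- SVE, Lhx1 2672 and 3423, Rora 3055 and 2572, and Six6 1857 and 3031. Every knockout library lay above wild type for Lhx1 and Six6, without a call (limma adjusted p = 0.344 and 0.0692). Vip and Avp, also SCN markers, were lower in the knockout, as given below. Levels below are normalised counts and are compared between groups, not between genes. Differences are on the log2(value + 1) scale, Vipr2-/- SVE minus wild-type nSVE. Fewer cells of a type and less RNA per cell cannot be told apart in such tissue.

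The targeted gene showed the genotype in every library. Vipr2 (ENSMUSG00000011171.11; GRCm38 chromosome 12, 116077726 to 116146261) read 6247, 6796, 7042 and 6538 in wild-type nSVE libraries 1 to 4 and 90.9, 244 and 193 in Vipr2-/- SVE libraries 1 to 3. The difference was -5.35 ± 0.255 (SE, limma adjusted p = 1.12e-08). The sources used here do not state which exons were deleted, so the reads left in the knockout do not measure receptor.

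Of the SCN peptide genes, Vip, Avp, Sst and Vgf were lower and Penk was higher than in wild type, and the other 12 tested were not called. Of 18175 genes, 81 passed at an adjusted p under 0.05, a share of 0.446%, with 27 higher (0.149%) and 54 lower (0.297%) in Vipr2-/- SVE. Among the 17 neuropeptide genes that were tested, 4 fell and 1 rose, and the median difference was -0.01 against -0.04 over all genes. The knockout libraries lay wholly above wild type for 4 of the 17 and wholly below for 5, as they did for 5.36% and 6.64% of all genes. No neuropeptide gene passed the test of closeness described below.

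Vip, the peptide ligand of the missing receptor, read 7507, 9848, 9398 and 7196 in wild type and 2428, 3977 and 3133 in exercised Vipr2-/- mice. All 3 knockout libraries lay below all 4 wild-type libraries. The difference was -1.43 ± 0.170 (SE, adjusted p = 0.000693), a 2.70-fold lower level, and Vip passed without any 1 of the 7 libraries (highest adjusted p = 0.00716). Avp, which encodes the vasopressin of dorsal SCN output neurons, read 12873, 13164, 14959 and 13214 against 4559, 5431 and 3203. Again the groups did not overlap, and the difference of -1.65 ± 0.231 (adjusted p = 0.00255) was 3.15-fold and kept its call in all 7 omissions (highest adjusted p = 0.0279). Vgf, a granin-like precursor of secreted peptides, read 16856, 15920, 18434 and 17191 against 6759, 7271 and 6469. Its difference was -1.32 ± 0.173 (adjusted p = 0.00145), with the knockout libraries all below wild type.

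Sst, the somatostatin gene, read 6424, 5407, 8170 and 6681 in wild type and 2613, 3491 and 2452 in the exercised knockout. It was lower by -1.23 ± 0.214 on the log2 scale (adjusted p = 0.0173) with no overlap. The Sst call was lost without wild-type nSVE library 1, 3 or 4 or Vipr2-/- SVE library 1 or 3 (highest adjusted p = 0.112). Penk, which encodes the enkephalins, moved the other way. It read 2852, 2451, 3180 and 3260 in wild type and 6261, 5221 and 5577 in the knockout, a difference of 0.96 ± 0.145 (adjusted p = 0.00555), or 1.94-fold, with every knockout library above every wild-type library. Penk passed in all 7 omissions (highest adjusted p = 0.0412).

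**Figure D1:**
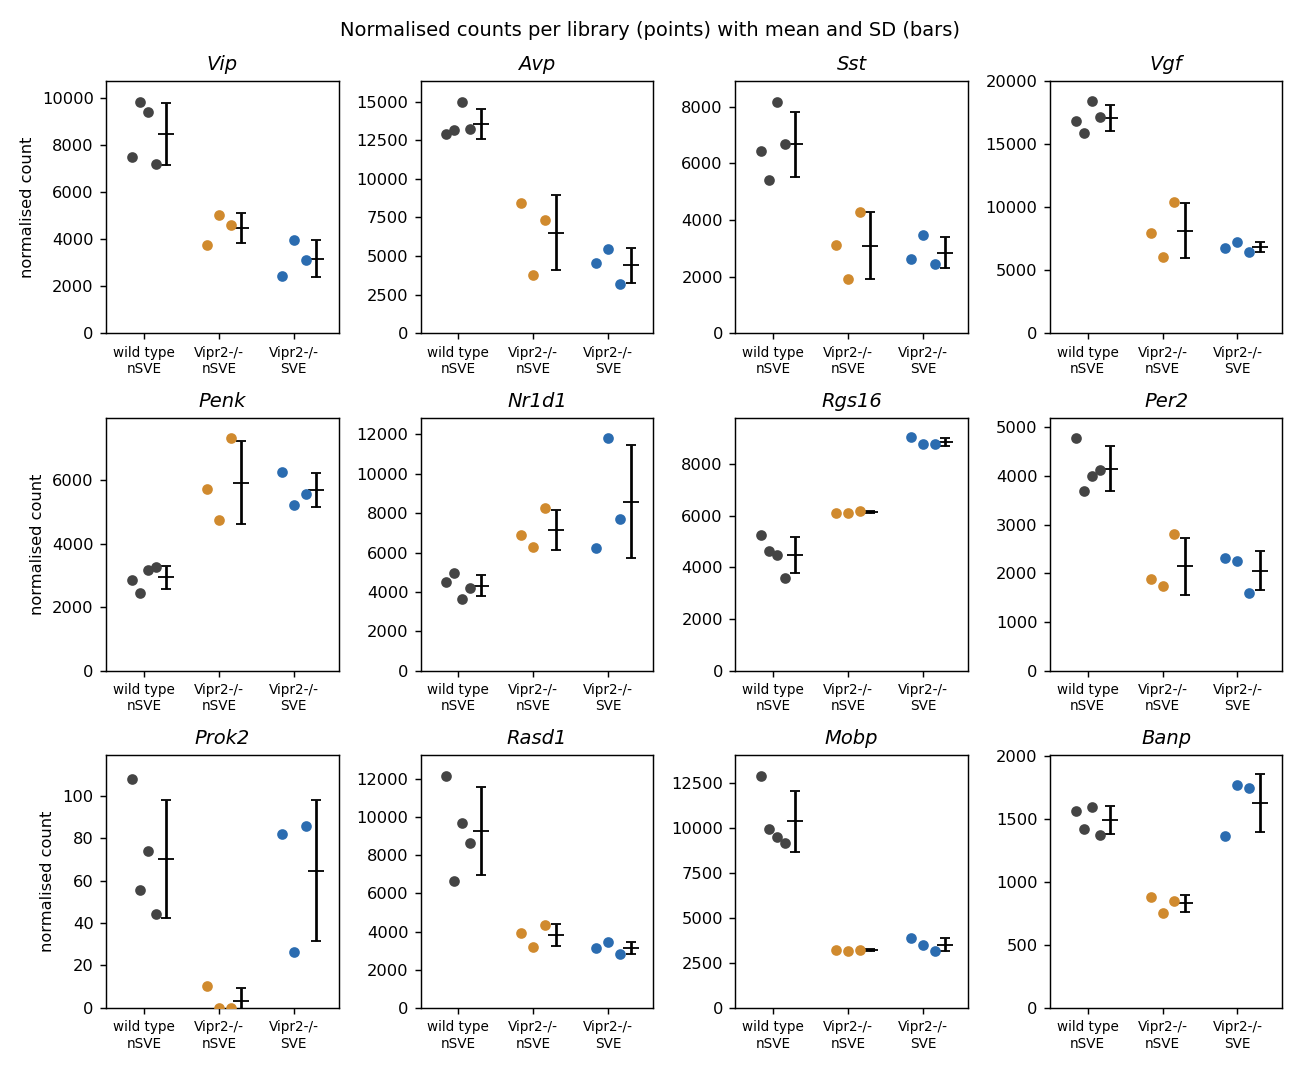
Normalised counts (vertical axes, linear from 0) of 12 genes in wild-type nSVE, Vipr2-/- nSVE and Vipr2-/- SVE libraries. Points are libraries and bars the mean with SD. Vip, Avp, Sst and Vgf lie lower in both Vipr2-/- groups than in wild type, Penk lies higher, and for Prok2 and Banp the exercised knockout overlaps wild type while the unexercised knockout lies below it.

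The unexercised knockout, measured against the same wild-type libraries, gave values for these peptides that can be read side by side. In that comparison 111 genes passed (0.611%). Vip averaged 4464 in Vipr2-/- nSVE and 3179 in Vipr2-/- SVE, with differences from wild type of -0.92 (adjusted p = 0.0191) and -1.43. Avp averaged 6525 and 4398, with differences of -1.13 (adjusted p = 0.0341) and -1.65. For Sst they were -1.17 and -1.23, for Vgf -1.10 and -1.32 and for Penk 1.00 and 0.96. Both comparisons use the 4 wild-type nSVE libraries. Tested directly, SVE against nSVE within Vipr2-/- mice passed for none of these 5 by limma (adjusted p from 0.251 for Vip to 0.936 for Sst and Penk). Of all genes, 21 passed in that direct comparison (0.116%) and 10.1% were within 1.5-fold, a measure defined below. The unexercised knockout was within 1.5-fold of wild type for 13.9% of genes.

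Prok2, the output signal prokineticin 2, overlapped wild type in the exercised knockout. It read 108, 55.7, 74.0 and 44.1 in wild type, 82.2, 26.3 and 85.8 in Vipr2-/- SVE, and 10.2, 0 and 0 in Vipr2-/- nSVE. Its difference from wild type was -0.22 with a 95% interval from -2.38 to 1.94, too wide to place it within 1.5-fold. In the unexercised knockout the difference was -4.92 (adjusted p = 0.0361), and SVE against nSVE within the knockout gave 4.70 without passing (adjusted p = 0.111). With Vipr2-/- nSVE libraries 2 and 3 at 0 for Prok2, both values depend on the pseudocount. In those libraries 11.8% and 20.7% of all tested genes were at 0. The receptor gene Prokr2 averaged 5723 in wild type and 4301 in Vipr2-/- SVE and did not pass (-0.42, adjusted p = 0.175). Other peptides also fell short of a call. Grp, the gastrin-releasing peptide of ventral neurons, differed by 0.59 (adjusted p = 0.219), Nms, the neuromedin S gene, by 0.61 (adjusted p = 0.100) and Cck, the cholecystokinin gene, by -0.46 (adjusted p = 0.275). Nppc, which encodes C-type natriuretic peptide, averaged 112 in wild type, 116 in Vipr2-/- nSVE and 351 in Vipr2-/- SVE. Its difference from wild type was 1.74 (adjusted p = 0.0953), and SVE against nSVE within the knockout gave 1.76 without passing (adjusted p = 0.174).

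Signalling genes downstream of peptide receptors were mixed. Of 20 receptors and G protein regulators tested, Rgs16 was higher, Rasd1 and Gpr176 were lower and 4 were within 1.5-fold, with a median of -0.31. Over all genes 0.446% were called, 12.9% were within 1.5-fold and the median was -0.04. Rgs16, which shortens Gi signalling in dorsal SCN neurons, read 5250, 4631, 4459 and 3585 in wild type and 9031, 8770 and 8750 in the knockout. The difference was 0.99 ± 0.199 (adjusted p = 0.0397) with no overlap, and it lost its call in 6 of 7 omissions (highest adjusted p = 0.141), passing without Vipr2-/- SVE library 2. Vipr2-/- nSVE mice averaged 6123 for Rgs16, and neither their difference from wild type (0.46, adjusted p = 0.308) nor that from exercised knockouts (0.53, adjusted p = 0.304) passed.

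Rasd1, the small G protein Dexras1, read 12158, 6661, 9678 and 8632 in wild type and 3136, 3440 and 2833 in the exercised knockout. The groups did not overlap, and the difference was -1.54 ± 0.242 (adjusted p = 0.00791, 0.0579 without Vipr2-/- SVE library 3). Gpr176, an orphan receptor of SCN neurons that signals through Gz, averaged 3562 ± 374 (SD, n = 4) in wild type and 1990 ± 331 (n = 3) in Vipr2-/- SVE. It was lower by -0.85 on the log2 scale (adjusted p = 0.00511) and passed in all 7 omissions. Within 1.5-fold stood Adcyap1r1, the PAC1 receptor of PACAP, together with Oprl1, Npr2 and Gnas. Gnas, which encodes the stimulatory G protein subunit, lay below wild type in every knockout library and lost its closeness call in each of the 7 omissions.

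Closeness to wild type needed a test of its own, since a missed difference does not show equal levels. A gene counted as within 1.5-fold when both one-sided limma tests placed its difference inside that margin at an adjusted p under 0.05. In all, 2346 genes did so (12.9% of those tested), and 15748 genes were neither called different nor placed within the margin. The median width of the 95% interval was 1.55 on the log2 scale over all genes and 0.668 over the 5307 genes with a mean of at least 1000. Closeness could thus be shown mainly for abundant genes, and 2247 of the 2346 had such a mean, which is 42.3% of the 5307. Of 50 named genes within 1.5-fold, 24 stayed so in all 7 omissions, 22 in some and 4 in none.

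**Figure D2:**
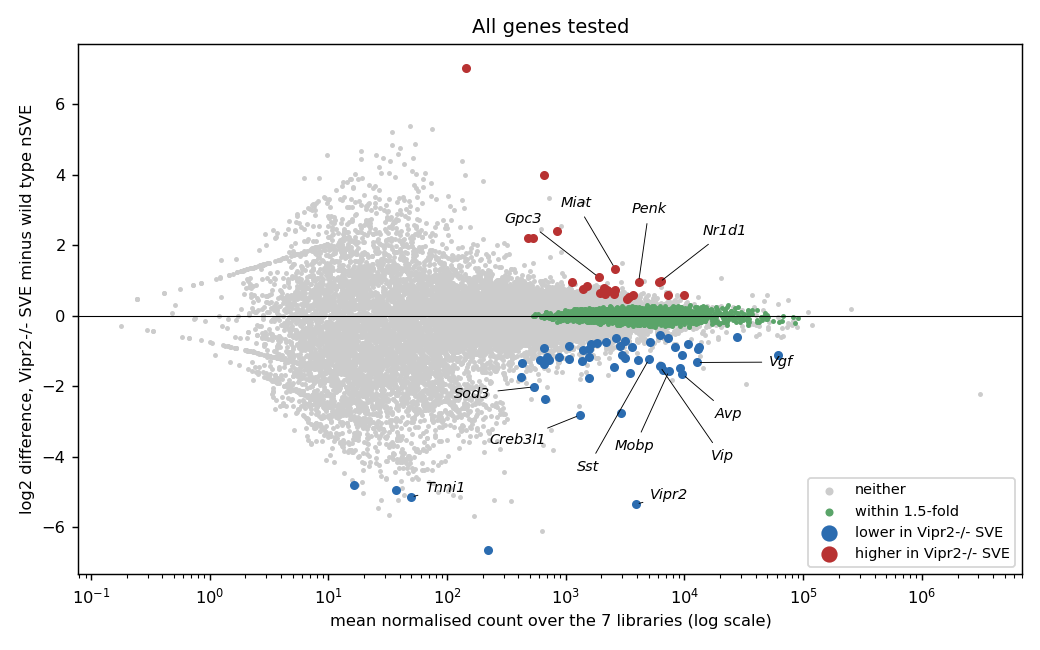
Difference between Vipr2-/- SVE and wild-type nSVE (vertical axis, log2) against the mean normalised count over the 7 libraries (horizontal, log scale) for all 18175 genes tested, 1 point a gene. Blue and red points are the 54 genes called lower and 27 called higher, green the 2346 within 1.5-fold and grey the other 15748.

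Most core clock genes were neither apart from wild type by test nor all shown to be close. Of 10 clock repressors tested, Nr1d1 was higher, Cry2 was within 1.5-fold and the other 8 were neither, with a median of 0.35. Among all 18175 genes 0.149% were called higher, 12.9% were within 1.5-fold and the median was -0.04. The knockout libraries lay wholly above wild type for 4 of the 10 and wholly below for 2, against 5.36% and 6.64% of all genes. By limma 4 of the 10 had an unadjusted p under 0.05, against 12.6% of all genes, while edgeR called 1 and DESeq2 called 2. Nr1d1, which encodes the nuclear receptor REV-ERBα that represses Arntl, read 4523, 4948, 3622 and 4206 in wild type and 6246, 11809 and 7725 in the knockout. It did not overlap and was higher by 0.95 ± 0.173 (adjusted p = 0.0243, 1.93-fold). The Nr1d1 call was lost without wild-type nSVE library 1, 3 or 4 or Vipr2-/- SVE library 3 (highest adjusted p = 0.0884). In Vipr2-/- nSVE mice Nr1d1 averaged 7148, a difference from wild type of 0.72 that did not pass (adjusted p = 0.0799).

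Per2, a light-responsive repressor, read 4778, 3692, 3997 and 4125 in wild type and 2317, 2251 and 1590 in the exercised knockout. The libraries did not overlap, yet the difference of -1.03 ± 0.253 missed the threshold (adjusted p = 0.0809). With only the groups compared in the fit, and with DESeq2, Per2 was called lower. In Vipr2-/- nSVE mice its difference was -0.98 (adjusted p = 0.105), and SVE against nSVE within the knockout gave -0.05 (adjusted p = 0.961). Per1 differed by 0.31 (adjusted p = 0.722), Per3 by 0.57 (adjusted p = 0.286) and Cry1 by -0.26 (adjusted p = 0.545). Cry2, a cryptochrome that closes the loop, read 4955, 5664, 5117 and 4901 against 4572, 4665 and 4861 and was within 1.5-fold (-0.13, adjusted p for closeness 0.00732). Its knockout libraries all lay below wild type despite that closeness.

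Among 7 clock activators, no gene was called by limma or edgeR or DESeq2 or had an unadjusted p under 0.05. Clock, the partner of BMAL1, averaged 1693 in wild type and 1820 in the knockout and was within 1.5-fold, though in only 1 of 7 omissions. Rorb, a nuclear receptor that activates Arntl, was within 1.5-fold too, and in 5 of 7 omissions. Arntl, the BMAL1 gene, differed by -0.41 with a 95% interval from -0.84 to 0.02. Of 4 clock output factors, Hlf was within 1.5-fold and none was called by limma or edgeR, with 3 at an unadjusted p under 0.05, against 12.6% of all genes, and 2 called by DESeq2. Tef read 8786, 6937, 6633 and 6004 against 10212, 8928 and 12620, above wild type in every library (0.58, adjusted p = 0.110), and Dbp averaged 3190 against 4854 (0.59, adjusted p = 0.305). Nfil3, which opposes them at D-boxes, averaged 395 against 189 (-1.10, adjusted p = 0.140).

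Several enzymes that set the pace of the clock proteins were close to wild type. Of 9 kinases and ubiquitin ligases, 6 were within 1.5-fold, against 12.9% of all genes and 42.3% of those with a mean of at least 1000. They were the casein kinase genes Csnk1d, Csnk1e, Csnk1a1 and Csnk2a1, the kinase gene Gsk3b, and Fbxw11, a ligase subunit that marks PER proteins. Csnk1d kept closeness in only 1 of 7 omissions, while Csnk1e, Gsk3b and Fbxw11 kept it in all 7. Csnk1e averaged 3494 in wild type and 3607 in the knockout (0.03, 95% interval -0.25 to 0.30). Fbxl21, a ligase subunit for cryptochromes, lay below wild type in every library without passing (-1.31, adjusted p = 0.309). No difference in this list passed by limma, edgeR or DESeq2, and 3 of the 9 had an unadjusted p under 0.05.

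**Figure D3:**
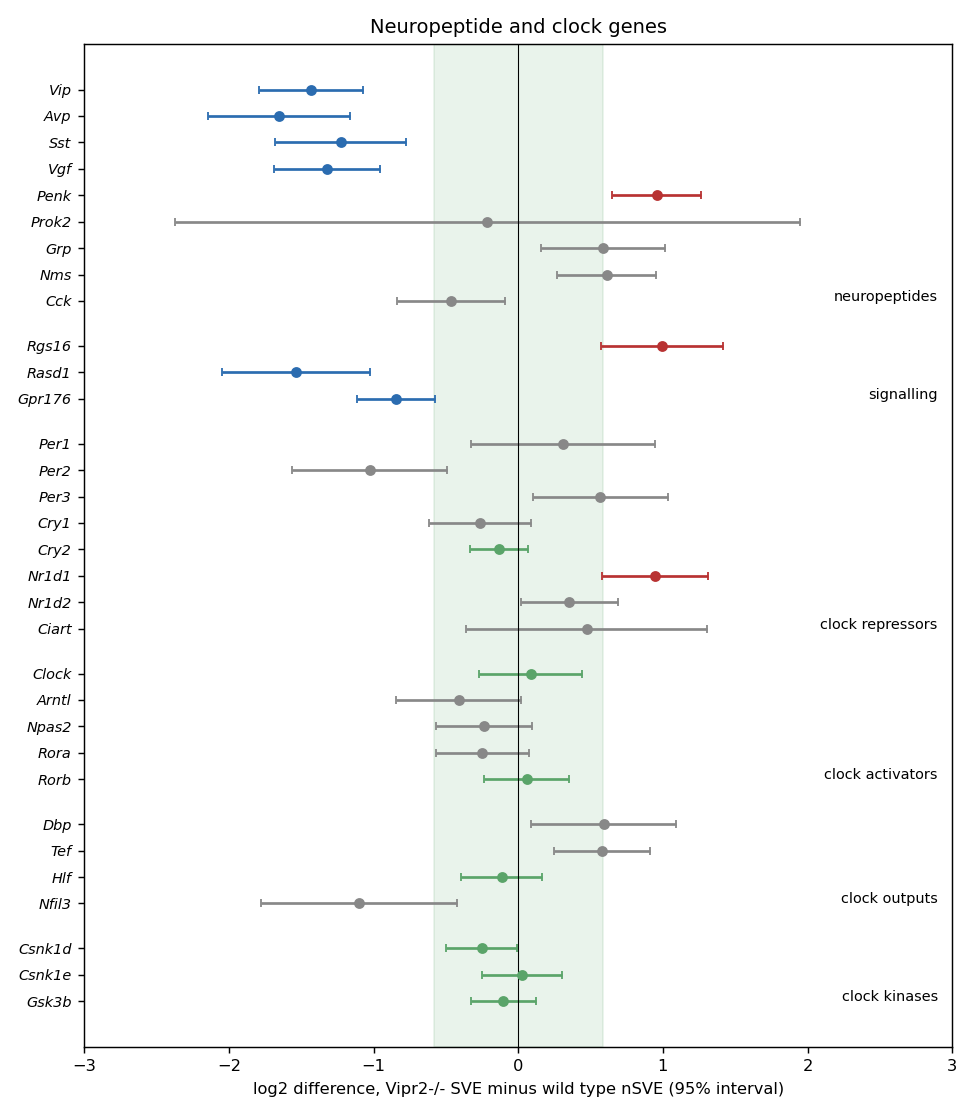
Difference from wild-type nSVE (horizontal axis, log2, with 95% interval) of peptide, signalling and clock genes in Vipr2-/- SVE. The shaded band marks 1.5-fold either way, with blue lower, red higher, green within the band by test and grey neither.

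Activity genes did not pass singly. Among the 20 immediate-early genes, induced when neurons fire, 17 lay below 0, against 53.6% of all genes, with a median of -0.65, none was called by limma, edgeR or DESeq2 and 3 had an unadjusted p under 0.05. Fos read 1326, 8106, 587 and 562 in wild type and 1143, 1735 and 855 in the exercised knockout. Egr1, another such factor, read 1808, 20640, 1093 and 797 against 897, 1713 and 981. Wild-type nSVE library 2 was far above the other 6 libraries for both genes. Without that library the median over the 20 genes was -0.05, with 12 below 0.

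The lists that follow are set beside the 42.3% of genes with a mean of at least 1000 that were within 1.5-fold. Members below that mean were not taken out of the lists, so the shares are not counted over like genes. Of 10 identity transcription factors, 4 were within 1.5-fold, Six3, Zic1, Rorb and Nr2f1, a share near that background. The closeness of Nr2f1 was lost in each of the 7 omissions. None was called by limma or edgeR, 1 was by DESeq2 and 4 had an unadjusted p under 0.05. In 3 of the 10 every knockout library lay above wild type, against 5.36% of all genes. Of 19 genes for GABA, the transmitter of most SCN neurons, 6 were within 1.5-fold. They include Gad1, which makes GABA, at 18426, 17334, 17329 and 17635 in wild type and 18932, 18029 and 18582 in the knockout (0.07, adjusted p for closeness 0.00635). The transporter gene Slc6a11 and the receptor gene Gabbr1 were also close. Of the 19, 15 lay above 0, against 46.3% of all genes, with a median of 0.27, which was 0.09 without Vipr2-/- SVE library 3, the library of the 7 with most genes at 0. None was called by limma or edgeR, 2 were by DESeq2 and 5 had an unadjusted p under 0.05. Gabrb1, a receptor subunit, came nearest, averaging 3468 against 5340 (0.61, adjusted p = 0.0567).

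In the cAMP pathway, through which VPAC2 signals, 9 of 23 genes were within 1.5-fold, again near the 42.3%. These include the catalytic subunit genes Prkaca and Prkacb and the regulatory subunit genes Prkar1a and Prkar1b of protein kinase A. None of the 23 was called by limma or edgeR, 2 were by DESeq2 and 4 had an unadjusted p under 0.05. Of 22 ion channel genes, 7 were within 1.5-fold, Kcnc1, Cacna1a, Cacna1b and Hcn2 among them, below that share. Prkacb, Cacna1a and Hcn2 each kept closeness in 2 of 7 omissions. Again limma and edgeR called none, DESeq2 called 2 and 5 had an unadjusted p under 0.05. Cacna1d, an L-type calcium channel gene, read 2395, 1924, 2579 and 2210 against 3411, 3200 and 3802, all above wild type, with a difference of 0.61 that missed the threshold (adjusted p = 0.0507).

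**Figure D4:**
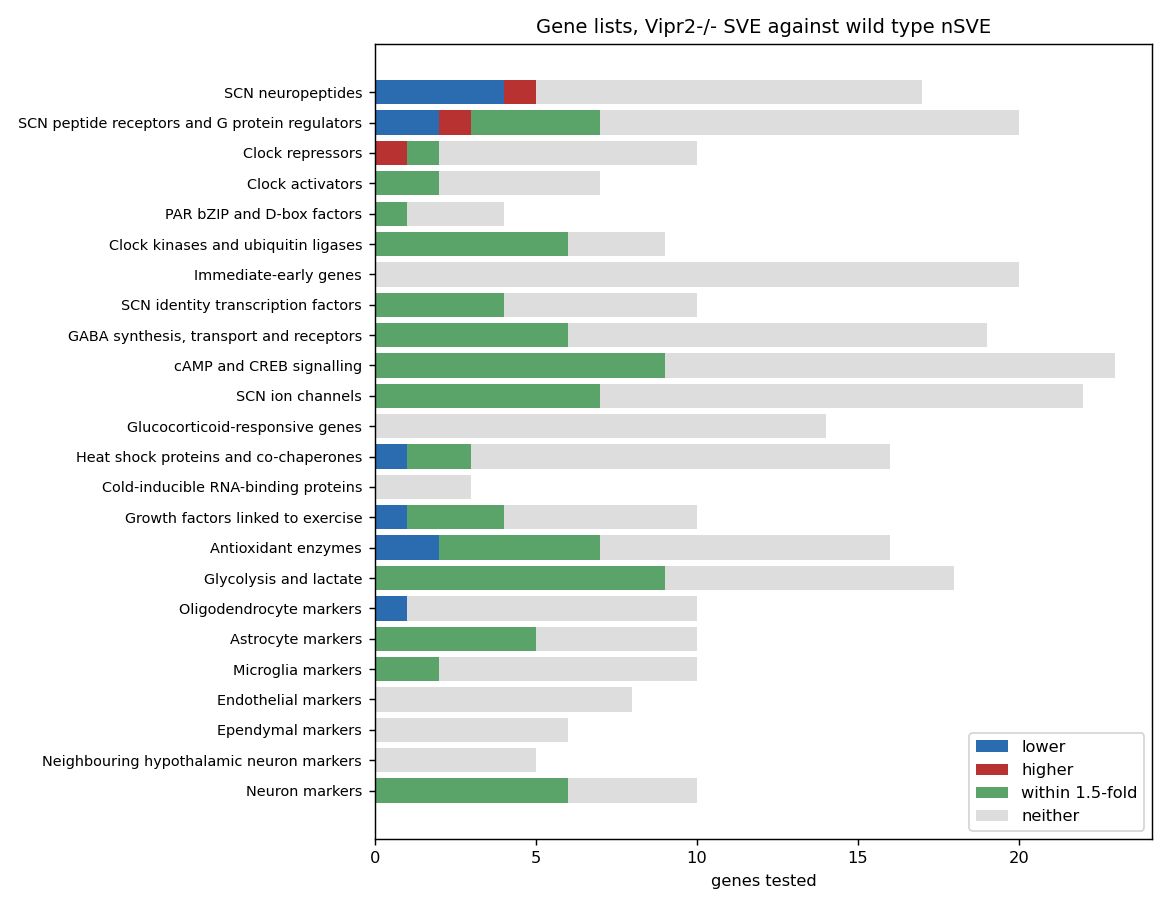
Number of genes tested (horizontal axis) in each of 24 gene lists, split into lower, higher, within 1.5-fold and neither, for Vipr2-/- SVE against wild-type nSVE. Calls are spread over the neuropeptide, receptor, clock repressor, heat shock, growth factor, antioxidant and oligodendrocyte lists, and the longest green shares are in kinases and ligases, neurons, astrocytes and glycolysis. The share within 1.5-fold was 12.9% of all genes and 42.3% of those with a mean of at least 1000.

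Antioxidant and chaperone genes gave 3 of the calls, all lower. For comparison, 0.297% of all genes were called lower and 12.9% were within 1.5-fold, or 42.3% of those with a mean of at least 1000. Sod3, the extracellular superoxide dismutase, read 694, 1057, 642 and 790 in wild type and 157, 195 and 233 in the knockout. The difference was -2.02 ± 0.242 (adjusted p = 0.000739, 4.04-fold), with no overlap and a call in all 7 omissions. Sod1, the cytosolic form, averaged 10275 ± 817 (SD, n = 4) against 5573 ± 635 (n = 3) (-0.88, adjusted p = 0.0361) and lost its call in 6 of 7 omissions (highest adjusted p = 0.157), passing without Vipr2-/- SVE library 2. Of 16 antioxidant enzymes these 2 were lower and 5 were within 1.5-fold, Sod2, Prdx2, Prdx3 and Prdx6 among them. Sod2 and Prdx6 were close in all 7 omissions, Prdx2 in 2 and Prdx3 in none. Of 16 heat shock genes, Hspa5, the chaperone of the endoplasmic reticulum, was lower (-0.55, adjusted p = 0.0447). It lost that call in each of the 7 omissions (highest adjusted p = 0.145), and edgeR called none of the 16. Of 18 genes of glycolysis and lactate, 9 were within 1.5-fold, including Aldoa, Pkm, Gpi1 and Eno2, of which Gpi1 was close in all 7 omissions and the others in 1 to 3. None was called by limma or edgeR, 1 was by DESeq2 and 6 had an unadjusted p under 0.05.

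Genes tied to exercise and stress hormones gave 1 call, where 0.446% of all genes were called and 12.9% were within 1.5-fold. Of genes with a mean of at least 1000, 42.3% were within 1.5-fold. Of 10 growth factor genes, Igfbp5, which binds insulin-like growth factors, was lower (-0.59, adjusted p = 0.0176). It averaged 32294 ± 1699 (SD, n = 4) in wild type and 21589 ± 2846 (n = 3) in the knockout, and lost its call without wild-type nSVE library 1, 2 or 4 or Vipr2-/- SVE library 1 (highest adjusted p = 0.0840). Ntrk2, Vegfa and Igf1r were within 1.5-fold, in 7, 6 and 1 of the 7 omissions. Of 14 glucocorticoid-responsive genes, none was called by limma, edgeR or DESeq2 and 2 had an unadjusted p under 0.05, with Tsc22d3 at 0.25 (adjusted p = 0.473). Of 3 cold-inducible genes none was called by any of the 3 tools and 1 had an unadjusted p under 0.05, with Cirbp at 0.12 (adjusted p = 0.867).

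Some genes were called in the unexercised knockout and were within 1.5-fold of wild type in the exercised knockout. Taken separately, 0.611% of all genes were called in the unexercised knockout and 12.9% were within 1.5-fold in the exercised knockout. The genes given here were singled out after their values were seen and are not the full set, whose number is not given. Banp, which encodes a nuclear DNA-binding protein, read 1567, 1423, 1597 and 1372 in wild type, 882, 755 and 850 in Vipr2-/- nSVE and 1361, 1769 and 1747 in Vipr2-/- SVE. Exercised knockout and wild-type libraries overlapped, and the difference was within 1.5-fold (0.12, adjusted p for closeness 0.0207). The unexercised knockout lay below wild type by -0.84 (adjusted p = 0.00749), and SVE against nSVE within the knockout gave 0.96 (adjusted p = 0.0124). The closeness held in 5 of 7 omissions. The Banp call within the knockout was lost with array weights, with the replicate block and with only those 6 libraries in the fit (adjusted p = 0.420).

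Another 3 of the genes singled out were within 1.5-fold and were called in the unexercised comparison against the same wild-type libraries. Ncor1, the corepressor that REV-ERB receptors recruit, differed by -0.64 in Vipr2-/- nSVE (adjusted p = 0.00567) and -0.25 in Vipr2-/- SVE, where all 3 libraries still lay below wild type. Glg1, a Golgi protein gene, gave -0.54 (adjusted p = 0.0267) and -0.25, also with every exercised library below wild type. Csrp1, a LIM-domain protein gene, gave 0.61 (adjusted p = 0.0200) and 0.10, with exercised and wild-type libraries overlapping. Closeness held in 4, 2 and 7 of 7 omissions for Ncor1, Glg1 and Csrp1. The direct comparison of SVE with nSVE passed for none of these by limma (adjusted p = 0.164, 0.286 and 0.130). Kdr, a VEGF receptor of endothelium, was not shown to be close to wild type. It read 83.5, 92.8, 55.2 and 121 in wild type, 0 in each Vipr2-/- nSVE library and 221, 133 and 213 in Vipr2-/- SVE, all above wild type. SVE against nSVE within the knockout passed for Kdr (7.53, adjusted p = 9.94e-05, 0.390 with only those 6 libraries), while its difference from wild type did not (1.11, adjusted p = 0.513). Against a group at 0 the fitted value depends on the pseudocount, and Vipr2-/- nSVE library 3 had the most tested genes at 0 of any library (20.7%).

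Outside the lists, and among genes with an official symbol, one of the largest falls was that of Tnni1, a slow troponin gene of muscle. It read 168, 47.4, 39.9 and 81.9 in wild type and 0, 7.65 and 0 in the exercised knockout, against 90.0, 49.0 and 113.7 in Vipr2-/- nSVE. Its difference was -5.14 (adjusted p = 0.0217), and it lost its call in 5 of 7 omissions. For Tnni1, SVE against nSVE within the knockout gave -5.29 without passing (adjusted p = 0.0532). Creb3l1, a transcription factor of the endoplasmic reticulum that in rat regulates Avp, read 2302, 2033, 1616 and 2333 against 439, 212 and 262. The groups were far apart, with a difference of -2.82 (adjusted p = 0.000807) kept in all 7 omissions. C1ql3, a secreted synaptic protein gene, differed by -2.37, Wdfy1, of endosomes, by -1.76, and Sema3e, a guidance cue, by -1.73. Sema3e passed in all 7 omissions, while C1ql3 did not without wild-type nSVE library 1 or Vipr2-/- SVE library 1 (highest adjusted p = 0.0634) and Wdfy1 did not without wild-type nSVE library 3 or 4 or Vipr2-/- SVE library 3 (highest adjusted p = 0.0763).

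Rn7sk, a small nuclear RNA, read 6192, 6206, 4255 and 2067 in wild type and 551, 737 and 621 in the knockout (-2.76, adjusted p = 0.0358). The rRNA-related CT010467.1 took 21.2%, 21.8%, 12.2% and 4.80% of reads in the same wild-type libraries and 3.72%, 2.68% and 3.27% in the knockout libraries. Both were lowest in wild type in library 4, and the part of rRNA carry-over in the Rn7sk value was not tested. Rpl38-ps2, a ribosomal pseudogene that can share reads with Rpl38, differed by -1.63. Rn7sk lost its call in 5 of 7 omissions (highest adjusted p = 0.138) and Rpl38-ps2 in 6 of 7 (highest adjusted p = 0.157).

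Mobp, a myelin protein gene, read 12903, 9973, 9496 and 9148 in wild type and 3865, 3518 and 3165 in the exercised knockout. Its difference of -1.55 ± 0.139 (adjusted p = 6.28e-05) held in all 7 omissions. Of 10 oligodendrocyte markers, Mobp alone was called by limma, edgeR or DESeq2, and the summed markers ran from 73702 to 99577 in wild type and from 58616 to 91599 in the knockout. In Vipr2-/- nSVE its difference was -1.68 (adjusted p = 2.10e-05). Also lower and kept in all 7 omissions, though named after their values were seen, were Chga (-1.11), Ndrg1 (-0.94), Cdh13 (-1.47), Fam43a (-1.24), Cdc14a (-1.28) and Slc2a13 (-0.89). Chga encodes chromogranin A, a protein of the dense-core granules that store peptides.

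On the higher side, Tmem181b-ps (3.99), Pisd-ps1 (2.41), Tmem254b (2.22) and Tmem254c (2.20) were higher and passed in all 7 omissions. Each has close copies with which it can share reads, so its value is uncertain. Their values in Vipr2-/- nSVE were 3.27, 1.30, 2.28 and 2.32 against the same wild-type libraries. Miat, a nuclear long noncoding RNA of neurons, read 1405, 1083, 2056 and 1839 in wild type and 3486, 3931 and 4404 in Vipr2-/- SVE. It was higher by 1.34 ± 0.205 (adjusted p = 0.00618) in every library, while Vipr2-/- nSVE averaged 2012, a difference of 0.36 from wild type (adjusted p = 0.436). For Miat, SVE against nSVE within the knockout gave 0.98 without passing (adjusted p = 0.105). Gpc3, a cell-surface proteoglycan gene on the X chromosome, averaged 1274 ± 112 (SD, n = 4) against 2725 ± 336 (n = 3) (1.09, adjusted p = 0.00255). Plxdc1, a transmembrane receptor gene, and Smpd3, a sphingomyelinase gene, were higher by 0.96 and 0.85. Plxdc1 lost its call without wild-type nSVE library 1 or 3 (highest adjusted p = 0.0706), and Smpd3 without those or Vipr2-/- SVE library 1 (highest adjusted p = 0.0736).

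Markers of other cell types moved as follows. Summed astrocyte markers ran from 90244 to 105620 in wild type and from 107200 to 125380 in Vipr2-/- SVE, without overlap, though none of the 10 was called by limma or edgeR and 1 was by DESeq2. Of those 10, 5 lay above 0 and 5 below, with a median of 0.03. Aldoc, the most abundant of them, averaged 30606 and 46319 without passing (0.59, adjusted p = 0.0856). Without Aldoc the sums overlapped between the groups, and 5 of the other markers were within 1.5-fold. All 6 ependymal markers lay below 0 with a median of -2.23, which was -0.99 without Vipr2-/- SVE library 3. None of the 6 was called by limma, edgeR or DESeq2, and 4 had an unadjusted p under 0.05. Their sum ran from 1505.1 to 2750.5 in wild type and from 717.9 to 1804.5 in the knockout. Microglial, endothelial and neuronal sums overlapped between the groups, with 0, 0 and 1 of their genes called by DESeq2 and none by limma or edgeR, and with 0, 0 and 2 at an unadjusted p under 0.05. Of 10 markers of neighbouring hypothalamic neurons, Crh, Kiss1, Hcrt and Pmch were at 0 in all 7 libraries. The others summed to 4345 to 10052 in wild type and 4270 to 8615 in the knockout, with no call among 5 tested by any of the 3 tools and none at an unadjusted p under 0.05. The part of cell composition in the differences above was not tested.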

How the data were processed

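Total RNA libraries of laser-cut SCN, 4 wild-type nSVE and 3 Vipr2-/- SVE, were compared, with 3 Vipr2-/- nSVE libraries beside them. The 4 wild-type SVE libraries only shared the estimate of spread. The deposited table holds 1 normalised signal per gene and library, which the authors obtained with DESeq2, per the submitters' processing notes. These also name Trimmomatic, FastQC, HISAT2 and StringTie. The design text names GRCm38 and the notes GRCm39, and coordinates here are those of the table, which match GRCm38. Dividing by the value of 1 read gave whole reads within 0.001 for 100% of values in each library. Values were fitted as log2(value + 1) by limma 3.58.1 (R 4.3.3) with a mean-variance trend, 1 mean per group and Benjamini-Hochberg adjustment over 18175 genes. The other tools were edgeR 4.0.16 and DESeq2 1.42.0 on recovered reads. Just inside the filter was Cbr2 (third-highest value 10.01) and just outside 4933427E11Rik (9.99). The members and lists were chosen with earlier results of these data known. The named genes are Vipr2, the 12 largest rises and falls among calls that carry an official symbol and average at least 50 in either group, up to 4 called and 4 close members of each list, and a set of clock, peptide and exercise genes. Some genes that this rule selects are not reported here. Fits were tested on simulated data.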

Additional observations from a re-analysis of the deposited data

Results flagged for a closer look

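In the 4 wild-type nSVE libraries, 104 genes were checked for a library set apart from the other 3 by most of the group's range, and 10 genes showed one. Chance flags about 1 in 20 groups. For 2 of them it was the activity genes of library 2, Fos at 8106 and Egr1 at 20640. Prkar1b at 33820, Hcn2 at 4461 and Per1 at 4266 were also highest in library 2. Avp was highest in library 3 at 14960, and Prdx2 was highest in library 1 at 10650. The lowest libraries were library 1 for Lhx1 at 2086, for Gpr176 at 3004 and for Zic1 at 6677. The Avp and Gpr176 calls were kept without any 1 of the 7 libraries.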

How the results depend on the processing

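Of the 81 calls, 24 were kept when any 1 of the 7 libraries was left out, and none of the 81 changed sign in any alternative or omission run. The counts moved more. The 27 higher calls became 12 with no filter, 15 with array weights, 17 with the replicate block, 16 with each library's share of genes at 0 as a covariate, 13 with only the groups compared, 17 with edgeR and 186 with DESeq2, and 9 to 89 in single omissions. The 54 lower calls became 32 with no filter, 32 with the covariate, 29 with edgeR and 273 with DESeq2, and 20 to 295 in single omissions. Among omissions, the highest counts came without Vipr2-/- SVE replicate 2. The genes within 1.5-fold, 2346, became 3612 with DESeq2 and 1147 to 1693 in single omissions, and edgeR gave no test of closeness. The 111 calls in unexercised knockouts became 49 with the replicate block, 16 with the covariate, 232 without the sparsest library of both Vipr2-/- groups, 53 with only the groups compared and 525 with DESeq2, and 36 to 269 in omissions. The 21 calls of SVE against nSVE in knockouts became 5 with a pseudocount of 10, 6 with no filter, 6 with a filter of 50, 4 with array weights, 4 with the replicate block, 8 with the covariate, 39 without the sparsest libraries, 6 with edgeR, 394 with DESeq2 and 6 to 177 in omissions. With only those 6 libraries in the limma fit they became 0, with 866 genes at an unadjusted p under 0.05. The causes were not tested. Replicate numbers do not pair the libraries, as same-numbered libraries had residual correlations of 0.0314, 0.00777 and -0.0536. With the replicate block, 41 of the 81 calls were kept. Of the genes that the naming rule selects and that are reported here, Sst, Nr1d1, Rgs16, Tnni1, Sod1 and Hspa5 were not. With edgeR 45 calls were kept, and of the same genes Rgs16, Tnni1, Rn7sk, Rpl38-ps2, Sod1 and Hspa5 were not. Genes named after their values were seen are left out of these lists. Of 73 named genes without a call, 24 changed sign in at least 1 alternative and 6 were called in at least 1. With 3 knockout libraries, low counts limit most genes, and a p that misses the threshold does not show equal levels.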

Other observations

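Cytosolic ribosomal protein genes, a list chosen after the data were seen, lay mostly below wild type in exercised knockouts. Of 76 tested, 6 were lower and none higher by limma, and 8 were within 1.5-fold, with a median log2 difference of -0.52 against -0.04 over all genes. The shares of all genes lower, higher and within 1.5-fold were 0.297%, 0.149% and 12.9%. In 42 of the 76 all knockout libraries lay below all wild-type libraries, as did 6.64% of all genes. Rpl3, of the large subunit, read 17421, 15885, 15083 and 17042 in wild type and 9392, 9693 and 7557 in Vipr2-/- SVE, a difference of -0.89 (limma adjusted p = 0.00511) kept in all 7 omissions. Rpl37a (-1.45), Rpl37 (-1.10), Rps29 (-1.42) and Rpl12 (-0.75) were also lower, but each lost its call in at least 1 omission. Many such genes have processed pseudogenes that can share reads with them.

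Calls fell on most chromosomes. Over all genes 0.446% were called. Chromosome 2 held 13 of the 81, or 0.938% of its 1386 genes tested. Chromosome 12 held 6, the targeted gene Vipr2 itself among them, or 0.837% of 717.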
